A study of Mus musculus with 83 samples.

Results

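Vitrification cools tissue into a glass without ice crystals so that it can be stored. The comparison described here asked whether mouse ovarian follicles that had been vitrified changed their RNA between 4 h and 8 h after an ovulatory stimulus in the same way as follicles that had never been frozen. It used 21 of the 83 single-follicle libraries of the study: 3 of Vitrified follicles at 8 h, 7 of Vitrified follicles at 4 h, 4 of Fresh follicles at 8 h and 7 of Fresh follicles at 4 h. They were chosen by the plate prefix in their titles, which is the only plate that held both kinds of follicle at these times. All came from WT mice of the CD-1 strain, an outbred stock, and all had been grown for 8 days in 0.5% alginate with 10 mIU/ml recombinant FSH. Every follicle, Vitrified or Fresh, then received human chorionic gonadotropin (hCG, 1.5 IU/ml), EGF (10 ng/ml) and recombinant FSH (10 mIU/ml) at a diameter of 300 to 350 µm, so there was no follicle without hCG among the 21. The ages of the mice are not in the labels. The labels give neither the animal nor the culture run of a follicle, and p-values measure only the spread between these follicles, which may be partly technical.

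hCG acts on the receptor for luteinizing hormone (LH). In the ovary the LH surge switches on, within hours and for a short time, EGF-like ligands, the progesterone receptor and prostaglandin synthesis in granulosa cells, the somatic cells around the oocyte. These signals lead to expansion of the cumulus cells, resumption of meiosis and rupture of the follicle, after which granulosa cells turn into luteal cells that make progesterone. Collections at 4 h and 8 h therefore sample the peak of this transient programme and its decline.

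Library totals ran from 1615779 to 6445431 counts, and 12328 to 16690 genes had a count. The 50 most abundant genes took 37.2 ± 1.31% of counts in Vitrified 8 h libraries (SD, n = 3) and 45.0 ± 1.53% in Vitrified 4 h libraries (n = 7), against 36.8 ± 1.84% in Fresh 8 h (n = 4) and 44.5 ± 2.08% in Fresh 4 h libraries (n = 7). The tissue label was checked with granulosa markers, which were present in every library and took 2.04 ± 0.06% of counts in Vitrified 8 h and 5.49 ± 0.30% in Vitrified 4 h libraries, against 2.02 ± 0.37% in Fresh 8 h and 5.50 ± 0.46% in Fresh 4 h libraries. A library is a whole follicle, so fewer cells of a type and less RNA per cell cannot be told apart. Each group occupied a plate row of its own, so the row and the group cannot be told apart either. The labels name no sequencing or culture run. The titles close with a sample number, and 3 such numbers appear in the Fresh 8 h row as well as in the Fresh 4 h row. Those rows may therefore stem from more than 1 run, and a run and the Fresh step cannot be told apart. The labels do not show which run the Vitrified rows belong to. A run may thus also enter the interaction and the difference at 8 h. Replicates 1 and 2 of Vitrified 4 h were closer to each other than the other 50 pairs of libraries within a group. Their chi-square statistic was 1.97 per gene, above the value of 1 that sampling noise alone gives, and the next closest pair was at 9.65. They were kept as 2 libraries, and the result with both summed as 1 is given with the counts.

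The change between 4 h and 8 h was large and much alike in both kinds of follicle, and the difference between the changes was carried by a set of genes that were low in the Vitrified 8 h libraries. Of 9296 genes tested with edgeR's quasi-likelihood test, 2360 (25.4%) rose and 1797 (19.3%) fell in Vitrified follicles at 8 h relative to 4 h, together 44.7%. In Fresh follicles, 2201 (23.7%) rose and 1920 (20.7%) fell, together 44.3%. The 2 steps use separate libraries. Their log2 fold changes had a Pearson r of 0.83 and a Spearman rho of 0.81 across the 9296 genes, which are not independent replicates. In both steps together, 2950 genes were called in the same direction, which is 71.0% of those called in Vitrified and 71.6% of those called in Fresh follicles, and 32 were called in opposite directions.

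The interaction is the Vitrified step minus the Fresh step, each 8 h minus 4 h on the log2 scale. A negative value means that a gene's level fell further, or gained less, in Vitrified than in Fresh follicles. At an adjusted p under 0.05, 162 genes (1.74%) had an interaction. It was negative in 152 of them (1.64%) and positive in 10 (0.108%), while 917 genes (9.86%) had an unadjusted p under 0.05. With the close pair of Vitrified 4 h libraries summed as 1, 138 genes were called, 133 negative and 5 positive. Without Vitrified 8 h replicate 3 the count was 103, with 98 negative and 5 positive. Every other library left out in turn gave between 114 and 193.

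**Figure D1:**
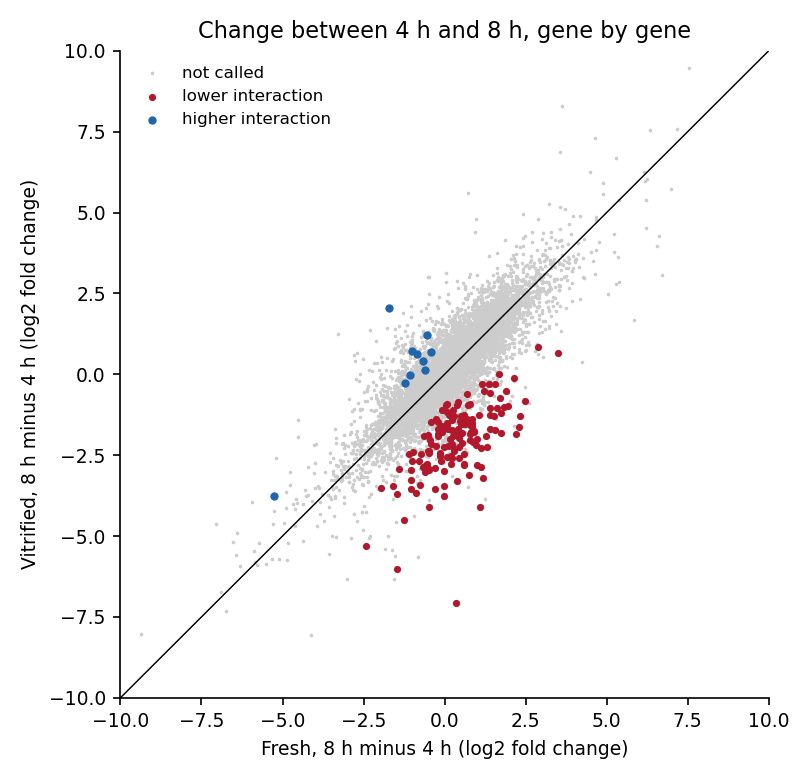
Log2 fold change of 8 h over 4 h in Vitrified follicles (vertical) against that in Fresh follicles (horizontal), 1 point for each of 9296 genes. Points on the line changed equally. The 152 genes with a lower interaction (red) lie below it, many near 0 on the horizontal axis, and the 10 with a higher interaction (blue) lie above it.

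Most of the 152 genes with a negative interaction fell in Vitrified follicles and were not called in Fresh ones. That pattern held for 88 of them. Another 30 fell in Vitrified follicles and rose in Fresh follicles, 19 fell in both, 14 rose in Fresh follicles and were not called in Vitrified ones, and 1 rose in both. Their median log2 fold change from 4 h to 8 h was -1.86 in Vitrified and 0.29 in Fresh follicles, beside 0.12 and 0.08 over all genes tested. These medians describe genes chosen by the interaction itself.

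The same genes can be read at each time. At 8 h, 146 of the 152 were also called lower in Vitrified than in Fresh follicles, where the call rate over all genes was 2.86% (3.46% in either direction), and at 4 h edgeR called none (0.0968% over all genes), with 15 at an unadjusted p under 0.05, which 6.83% of all genes had. Their median difference between Vitrified and Fresh follicles was -2.09 at 8 h and 0.16 at 4 h. In 147 of the 152 all 3 Vitrified 8 h libraries lay below all 4 Fresh 8 h libraries, which held for 6.77% of all genes. In 92 of the 152 the 3 lay below every one of the other 18 libraries, which held for 2.33% of all genes. All of these counts use the 8 h libraries that also chose the genes, and they show where the difference lies rather than testing it again.

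Levels below are in CPM, a gene's count as a share of the library's total scaled by TMM, and are not corrected for gene length. The called genes are ordered by what their products do, as a description only, since no such grouping of them was tested. Ahctf1 encodes ELYS, which seeds nuclear pores on chromatin as the nuclear envelope re-forms (chr1:179744894-179803680, minus strand, GRCm38). Its level was 10.5, 8.79 and 9.04 CPM in the 3 Vitrified 8 h libraries and 40.0 to 121 CPM, with a median of 114, in Vitrified 4 h libraries. Fresh 8 h libraries had 127, 143, 96.4 and 107 CPM, and Fresh 4 h libraries had 67.8 to 136 with a median of 81.2. The 3 Vitrified 8 h libraries lay below all of the other 18, which overlapped among themselves. The log2 interaction was -3.69 ± 0.42 (SE; edgeR adjusted p = 1.26e-05), made up of a fall by 3.30 ± 0.35 in Vitrified follicles and a Fresh step of 0.39 ± 0.25 that did not pass.

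Lonp1 codes for the main protease of the mitochondrial matrix (chr17:56614297-56626887, minus strand). It stood at 48.9, 33.6 and 23.8 CPM in Vitrified 8 h libraries and at 79.2 to 158 CPM (median 112) in Vitrified 4 h libraries, against 183, 233, 193 and 169 CPM in Fresh 8 h and 101 to 139 CPM (median 106) in Fresh 4 h libraries. None of the Vitrified 8 h values reached any of the others, and all 4 Fresh 8 h values lay above all other libraries. The gene fell by 1.80 ± 0.23 in Vitrified follicles and rose by 0.81 ± 0.19 in Fresh ones, an interaction of -2.61 ± 0.30 (adjusted p = 1.26e-05).

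Ash2l, a subunit of the complexes that methylate histone H3 at lysine 4, had 2.93, 3.19 and 2.04 CPM in Vitrified 8 h and 7.55 to 13.9 CPM (median 11.9) in Vitrified 4 h libraries. In Fresh follicles it had 21.9, 19, 24.5 and 19.1 CPM at 8 h and 8.22 to 14.3 CPM (median 12.2) at 4 h. As with Lonp1, the Vitrified 8 h libraries were the lowest and the Fresh 8 h libraries the highest, with no overlap between 4 h and 8 h in either kind of follicle (interaction -2.95 ± 0.35, adjusted p = 1.66e-05). Hdac2, a class I histone deacetylase, had 1.67, 5.35 and 3.65 CPM in Vitrified 8 h libraries, against 33.9, 24.1, 20.6 and 28.7 CPM in Fresh 8 h libraries, with an interaction of -2.81 ± 0.47 (adjusted p = 0.000936). Sap30, a subunit of the Sin3 complex that carries such deacetylases, had at most 1.25 CPM in Vitrified 8 h libraries and 7.75 to 12.0 CPM in Fresh 8 h libraries (interaction -3.57 ± 0.57, adjusted p = 0.000568). Wrnip1, an ATPase that binds the Werner helicase, had an interaction of -3.75 ± 0.64.

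Khdrbs1 encodes Sam68, an RNA-binding regulator of splicing. It had 6.69, 3.31 and 3.35 CPM in Vitrified 8 h libraries and 30.7 to 109 CPM (median 73.0) in Vitrified 4 h libraries, against 48.1, 40.6, 46.1 and 55.1 CPM in Fresh 8 h and 30.9 to 108 CPM (median 58.0) in Fresh 4 h libraries. Only the Vitrified 8 h libraries stood apart, and the interaction was -3.63 ± 0.55 (adjusted p = 0.000535). Ybx1, a Y-box protein that binds RNA and DNA, had 192, 397 and 145 CPM in Vitrified 8 h libraries, against 2946, 4432, 3439 and 3459 CPM in Fresh 8 h libraries. Its Vitrified 4 h libraries spread from 139 to 3664 CPM (median 1519), so they overlapped the Vitrified 8 h ones, and Fresh 4 h libraries ran from 734 to 3120 CPM (median 1543). The interaction of Ybx1 was -3.97 ± 0.91 (adjusted p = 0.0281). It was lost without any 1 of Fresh 8 h replicates 2 and 4 or Vitrified 8 h replicates 1 and 3, with an adjusted p of up to 0.135. Its pseudogene Ybx1-ps2 had -3.38 ± 0.78, and reads of the pair may have been counted for either. Srsf2, a splicing factor, had 2.51, 2.04 and 2.33 CPM in Vitrified 8 h libraries, against 14.5, 13.4, 35 and 123 CPM in Fresh 8 h libraries (-3.86 ± 0.89, adjusted p = 0.0270). Its call was lost when any 1 of the 3 Vitrified 8 h libraries was left out (adjusted p up to 0.130).

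Tpbg encodes the trophoblast glycoprotein 5T4, a membrane protein (chr9:85842380-85847040, plus strand). It had 3.76, 1.27 and 1.90 CPM in Vitrified 8 h and 39.8 to 196 CPM (median 123) in Vitrified 4 h libraries, against 45.0, 35.1, 28.3 and 35.1 CPM in Fresh 8 h and 66.2 to 153 CPM (median 84.7) in Fresh 4 h libraries. In both kinds of follicle every 8 h library lay below every 4 h library, and the gap was wider in Vitrified follicles. The gene fell by 6.0 ± 0.51 in Vitrified and by 1.46 ± 0.33 in Fresh follicles (interaction -4.54 ± 0.55, adjusted p = 5.07e-05). Stt3b, a catalytic subunit of the oligosaccharyltransferase that adds sugar chains to new proteins in the endoplasmic reticulum, did likewise. It fell by 3.66 ± 0.33 in Vitrified and by 0.88 ± 0.25 in Fresh follicles (interaction -2.78 ± 0.39, adjusted p = 0.000173). Tram1, which works beside the translocon through which new proteins enter that compartment, fell by 2.45 ± 0.21 and by 0.72 ± 0.17.

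Rab10, a small GTPase of vesicle traffic, went in opposite directions. It had 30.5, 20.9 and 29.3 CPM in Vitrified 8 h and 49.8 to 185 CPM (median 140) in Vitrified 4 h libraries, against 181, 216, 224 and 210 CPM in Fresh 8 h and 59.4 to 164 CPM (median 98.7) in Fresh 4 h libraries. At 8 h it was below every 4 h library in Vitrified follicles and above every 4 h library in Fresh ones, with an interaction of -3.16 ± 0.47 (adjusted p = 0.000399). The tetraspanin gene Tspan5 had an interaction of -4.42 ± 0.96 (adjusted p = 0.0186), which was lost without Vitrified 8 h replicate 2 or 3 (adjusted p up to 0.102). Slc25a33, a mitochondrial carrier of pyrimidine nucleotides, fell by 1.62 ± 0.53 in Vitrified follicles and rose by 2.31 ± 0.41 in Fresh ones.

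Psme3 is the PA28γ activator of the nuclear proteasome (chr11:101316213-101323537, plus strand). Its level was 3.35, 3.06 and 4.96 CPM in Vitrified 8 h and 8.44 to 32.4 CPM (median 16.1) in Vitrified 4 h libraries, against 29.1, 28.4, 29.3 and 29.9 CPM in Fresh 8 h and 3.91 to 20.3 CPM (median 14) in Fresh 4 h libraries. The 4 Fresh 8 h libraries were nearly equal and lay above all Fresh 4 h libraries, while the 3 Vitrified 8 h libraries lay below all Vitrified 4 h ones. The interaction was -3.42 ± 0.52 (adjusted p = 0.000399). Bag1, a co-chaperone of Hsp70, had 18, 28.8 and 13 CPM in Vitrified 8 h libraries, inside the Vitrified 4 h range of 11.1 to 57.3 CPM (median 43.4). Fresh 8 h libraries had 134, 200, 123 and 163 CPM, all above the Fresh 4 h range of 25.6 to 61.8 CPM (median 34.4). Bag1 rose by 1.95 ± 0.30 in Fresh follicles and fell by 0.98 ± 0.36 in Vitrified ones (interaction -2.93 ± 0.48, adjusted p = 0.000910).

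Gata4, a transcription factor of granulosa cells, had 28.4, 22.8 and 9.33 CPM in Vitrified 8 h and 58.7 to 127 CPM (median 87.6) in Vitrified 4 h libraries, against 53.9, 79.3, 72.0 and 81.3 CPM in Fresh 8 h and 37.8 to 89.4 CPM (median 64.8) in Fresh 4 h libraries. The interaction of Gata4 was -2.44 ± 0.40 (adjusted p = 0.000674). Ctnnb1 encodes β-catenin, the adhesion protein and Wnt effector, and had 51.0, 49.2 and 8.75 CPM in Vitrified 8 h libraries against 164, 196, 217 and 208 CPM in Fresh 8 h libraries (-2.56 ± 0.43, adjusted p = 0.000995). In both genes Vitrified 8 h replicate 3 was the lowest library, and both remained called without it. Rras2, a small GTPase related to Ras, fell by 1.86 ± 0.60 in Vitrified follicles and rose by 2.19 ± 0.47 in Fresh ones (interaction -4.05 ± 0.78, adjusted p = 0.00714). Pnrc1, a nuclear receptor coactivator, had 1.25, 3.06 and 3.21 CPM in Vitrified 8 h against 98.2, 117, 160 and 100 CPM in Fresh 8 h libraries. Its Vitrified 4 h libraries ran from 1.33 to 94.1 CPM, and its interaction of -5.21 ± 1.14 (adjusted p = 0.0210) was lost without any 1 of the 3 Vitrified 8 h libraries (adjusted p up to 0.0951). Txnrd1, the cytosolic thioredoxin reductase, fell by 3.42 ± 0.36 in Vitrified and by 0.77 ± 0.27 in Fresh follicles (interaction -2.65 ± 0.42, adjusted p = 0.000535). Phlda3, a p53 target that restrains Akt, rose by 2.33 ± 0.52 in Fresh follicles and had a Vitrified step of -1.30 ± 0.60 that did not pass (interaction -3.63 ± 0.81, adjusted p = 0.0132). That call was lost without Vitrified 8 h replicate 2 (adjusted p = 0.0622).

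**Figure D2:**
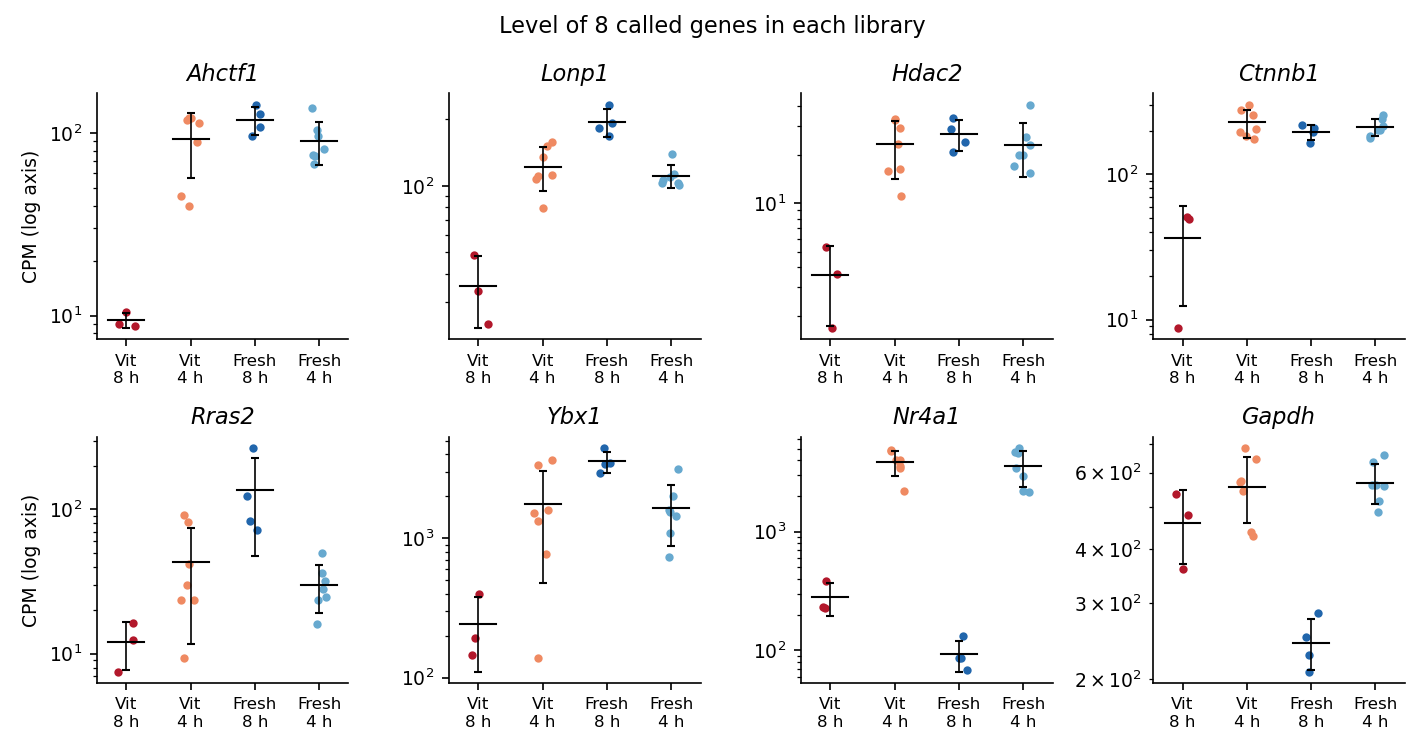
Level of 8 called genes in each of the 21 libraries, in CPM on a log axis, for Vitrified 8 h, Vitrified 4 h, Fresh 8 h and Fresh 4 h follicles. Lines and bars are the mean and SD. In Ahctf1, Lonp1, Hdac2 and Ctnnb1 all Vitrified 8 h points lie below the other libraries, Ybx1 and Rras2 have Vitrified 4 h points as low, and in Nr4a1 and Gapdh the Vitrified 8 h points lie above the Fresh 8 h points.

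The 10 genes with a positive interaction had Vitrified 8 h levels above all 4 Fresh 8 h libraries in each case, which held for 5.29% of all genes. Of the 10, 6 fell in Fresh follicles and were not called in Vitrified ones, 2 rose in Vitrified follicles only, 1 rose in Vitrified and fell in Fresh follicles, and 1 fell in both. That last gene was Nr4a1, an orphan nuclear receptor that LH induces at once in granulosa cells (chr15:101254269-101274795, plus strand). It had 233, 228 and 383 CPM in Vitrified 8 h and 2197 to 4872 CPM (median 4008) in Vitrified 4 h libraries, against 86.3, 68.4, 131 and 86.6 CPM in Fresh 8 h and 2171 to 5043 CPM (median 3459) in Fresh 4 h libraries. The 4 h ranges were nearly the same and the 8 h ranges did not overlap. Nr4a1 fell by 3.77 ± 0.34 in Vitrified and by 5.27 ± 0.33 in Fresh follicles, an interaction of 1.50 ± 0.37 (adjusted p = 0.0283).

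Gapdh, the glycolytic enzyme, had 478, 360 and 536 CPM in Vitrified 8 h and 429 to 683 CPM (median 572) in Vitrified 4 h libraries, against 208, 250, 285 and 227 CPM in Fresh 8 h and 486 to 659 CPM (median 560) in Fresh 4 h libraries. Only the Fresh 8 h libraries stood apart. It fell by 1.23 ± 0.17 in Fresh follicles, and its Vitrified step of -0.28 ± 0.18 did not pass (interaction 0.95 ± 0.24, adjusted p = 0.0309). Ftl1, the light chain of the iron store ferritin, had the same shape on a smaller scale, with 2509, 2588 and 3256 CPM in Vitrified 8 h libraries against 1706, 1782, 1651 and 1640 CPM in Fresh 8 h libraries (interaction 0.74 ± 0.19, adjusted p = 0.0400). Alas1, the first enzyme of heme synthesis, rose by 1.23 ± 0.33 in Vitrified follicles (interaction 1.78 ± 0.46, adjusted p = 0.0413). Itpr1, a calcium channel of the endoplasmic reticulum, fell by 1.00 ± 0.31 in Fresh follicles (interaction 1.70 ± 0.44, adjusted p = 0.0437). Slc30a7, a zinc transporter of the Golgi, rose by 0.68 ± 0.21 in Vitrified follicles (interaction 1.09 ± 0.29, adjusted p = 0.0494). The other four were the forkhead gene Foxs1, which was under 5 CPM in every group mean, and Gm6252, Gm9385 and Rpl14-ps1, whose interactions of 1.49, 1.04 and 1.08 may hold reads of near-identical copies. None of the 10 was called in all 21 fits that left out 1 library. Nr4a1 was lost without any 1 of Fresh 8 h replicates 1, 2 and 4 or Vitrified 8 h replicate 3 (adjusted p up to 0.176), and Slc30a7 was called in 2 of the 21. Of 37 called genes named here or in the closing section, 27 had a negative interaction, and 19 of those were called in all 21, among them Ahctf1, Lonp1, Ash2l, Tpbg, Psme3, Rab10, Hdac2, Gata4 and Ctnnb1. Each of these fits kept Vitrified 8 h libraries that chose the genes. With 9 Vitrified 8 h libraries of another plate in their place, described below, 11 of 36 such genes tested stayed called. Another 21 kept their sign without a call, and 4 turned sign.

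The best known ovulatory genes had no called interaction by edgeR. A panel of 26 genes had 24 members tested and none called, where 1.74% of all genes were called. It held ovulatory and steroidogenic genes together with Hnrnpu, an RNA-binding protein, and Nfkbia, an inhibitor of NF-kB. In the panel 3 genes had an unadjusted p under 0.05, beside 9.86% of all genes. DESeq2's Wald test called the same 3, Ptx3, Runx1 and Hnrnpu, beside 2.61% of all genes. Pgr, the progesterone receptor, had 15.9, 7.14 and 64.2 CPM in Vitrified 8 h and 5780 to 9017 CPM (median 7686) in Vitrified 4 h libraries, against 3.62, 11.4, 25.9 and 8.86 CPM in Fresh 8 h and 5519 to 11090 CPM (median 7481) in Fresh 4 h libraries. It fell by 8.03 ± 0.75 in Vitrified and by 9.36 ± 0.70 in Fresh follicles, with an interaction of 1.33 ± 0.67 (adjusted p = 0.537). The 4 h and the 8 h ranges each overlapped between Vitrified and Fresh follicles.

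Several other ovulatory genes of the panel, though not all, fell steeply in both kinds of follicle. Ptgs2, which makes prostaglandins, fell by 6.72 ± 0.57 in Vitrified and by 6.91 ± 0.50 in Fresh follicles. The EGF-like ligands Areg, Ereg and Btc fell too, with Vitrified steps of -4.90, -5.45 and -5.72, Fresh steps of -6.4, -5.89 and -5.33 and interactions of 1.50 ± 0.77, 0.44 ± 0.62 and -0.39 ± 0.39. Tnfaip6, which crosslinks the hyaluronan matrix of the cumulus, fell by 5.14 in Vitrified and by 4.36 in Fresh follicles, and Has2, which makes hyaluronan, by 2.67 and 3.14. Sult1e1, which inactivates estrogen, fell by 5.75 in Vitrified and by 4.87 in Fresh follicles. In the other direction Fshr, the FSH receptor, rose by 3.79 ± 0.43 in Vitrified and by 5.24 ± 0.48 in Fresh follicles. Akr1c18, the enzyme that breaks down progesterone, rose in both, with 1.67, 1.15 and 20.4 CPM in Vitrified 8 h and at most 0.463 CPM in Vitrified 4 h libraries, against 2.58, 5.93, 7.68 and 0.354 CPM in Fresh 8 h and at most 0.472 CPM in Fresh 4 h libraries. A missed threshold does not show that the steps of these genes were equal, since the interaction had a standard error of 0.39 in Btc and 0.86 in Has2.

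Ptx3 and Runx1 had the smallest p of the panel. Ptx3, a matrix protein of the expanded cumulus, had 7.95, 4.84 and 1.90 CPM in Vitrified 8 h and 4.00 to 144 CPM (median 71.2) in Vitrified 4 h libraries, against 139, 186, 105 and 721 CPM in Fresh 8 h and 35.3 to 328 CPM (median 95.2) in Fresh 4 h libraries. The 8 h groups were far apart, and the Vitrified 4 h libraries overlapped all the others (interaction -5.09 ± 1.34, adjusted p = 0.0710 by edgeR and 0.000913 by DESeq2). Runx1, a transcription factor that the LH surge induces, had 238, 134 and 40.4 CPM in Vitrified 8 h and 990 to 2051 CPM (median 1606) in Vitrified 4 h libraries, against 371, 424, 368 and 602 CPM in Fresh 8 h and 1647 to 2101 CPM (median 1750) in Fresh 4 h libraries. Its interaction was -1.49 ± 0.41 (adjusted p = 0.0711 by edgeR and 0.0235 by DESeq2). Star, whose protein brings cholesterol to the mitochondrial enzymes of steroid synthesis, fell by 2.05 ± 0.55 in Fresh follicles and had a Vitrified step of -0.84 ± 0.57, with an interaction of 1.21 ± 0.74 (adjusted p = 0.647). Edn2, at 0 to 52 counts per library, and Cebpb, at 0 to 5, were too low to test.

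**Figure D3:**
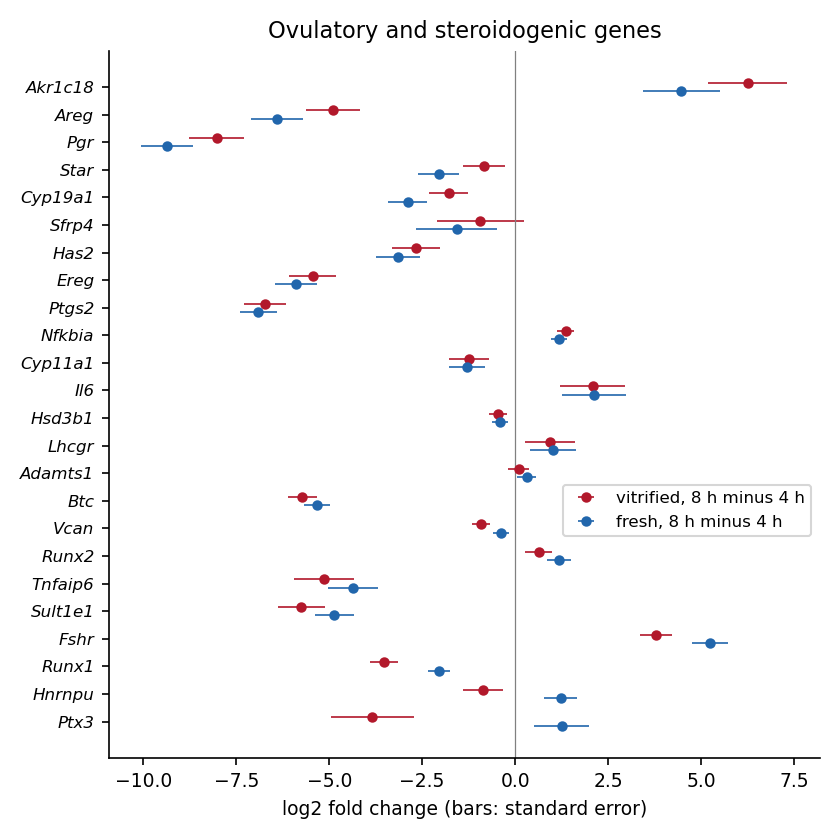
Log2 fold change of 8 h over 4 h for 24 genes of the panel, in Vitrified (red, upper point of each pair) and Fresh follicles (blue, lower point). Bars are standard errors, and genes are ordered by the interaction. The panel holds ovulatory and steroidogenic genes with Hnrnpu and Nfkbia. Pgr, Ptgs2, Areg, Ereg and Btc lie far to the left in both kinds of follicle. The gap between the points is widest in Ptx3, at -3.84 in Vitrified and 1.25 in Fresh follicles.

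Across 32 lists of pathway genes and cell type markers, 5 lists held 1 gene called by edgeR each and the others none. Over all genes, edgeR called 1.74% and DESeq2 2.61%. DESeq2 called 2 genes each among prostaglandin, immediate early, oxidative stress and cold shock genes. It called 1 gene each in the lists of cumulus expansion, ovulatory factors, glycolysis, p53 targets and actin, and none in the others. Immediate early genes, which answer a stimulus within minutes, had 19 members tested, of which Nr4a1 was called. The interaction was above 0 in 17 of the 19, with a median of 0.66, beside 0.08 over all genes. Egr1, an immediate early transcription factor, had 2970, 2498 and 4187 CPM in Vitrified 8 h libraries, all above the 1664, 1614, 2146 and 1939 CPM in Fresh 8 h libraries, but its interaction of 0.82 ± 0.30 did not pass (adjusted p = 0.232). Of 22 glycolysis and hypoxia genes, Gapdh was called, and the median was 0.35. Of 21 genes of the oxidative stress response, Txnrd1 was called lower, and the median was 0.13. Gclm, a subunit of the enzyme that starts glutathione synthesis, missed at -2.86 ± 0.80 (adjusted p = 0.0723). Phlda3 was the called gene of 16 p53 targets (median -0.12), and Ybx1 that of 11 cold shock and RNA-binding genes (median -0.37). None of 26 proteasome genes, 15 heat shock genes or 18 genes of endoplasmic reticulum stress was called by edgeR or DESeq2. The medians of these lists were 0.10, -0.04 and 0.11. They held 1, 1 and 2 genes at an unadjusted p under 0.05, beside 9.86% of all genes. Lists with a called gene held more, with 7 of 19 immediate early, 6 of 21 oxidative stress and 4 of 11 cold shock genes. Glycolysis had 4 of 22 and p53 targets 2 of 16. No list was tested as a set. At the shares over all genes, lists this short would hold few called genes or none.

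Genes of matrix and stroma lay above 0 as groups with none called by edgeR or DESeq2, where 1.74% and 2.61% of all genes were called. Of 22 genes of collagens, laminins and basement membrane, 20 had an interaction above 0, with a median of 1.38, beside 0.08 over all genes. Their median difference between Vitrified and Fresh follicles was 0.79 at 8 h and -0.90 at 4 h. In that list 5 genes had an unadjusted p under 0.05, beside 9.86% of all genes. Of 14 theca and stroma markers 13 had an interaction above 0, with a median of 1.14. Their median difference was 0.71 at 8 h and -0.54 at 4 h. Single genes had wide errors, for example Col3a1, a fibrillar collagen, at 1.99 ± 1.33 and Fn1, fibronectin, at 2.21 ± 0.99. The share of all counts taken by 20 theca and stroma markers moved with them. It was 0.0325% to 0.111% in Vitrified 8 h and 0.0148% to 0.100% in Vitrified 4 h libraries, against 0.0210% to 0.0623% in Fresh 8 h and 0.0224% to 0.228% in Fresh 4 h libraries. The interaction of that share did not pass a two-sided exact permutation test (p = 0.104, adjusted p = 0.475 over 10 measures). It was 0.062 percentage points, and 0.037 without Fresh 4 h replicate 4, the library with the highest share. Myh11, a smooth muscle marker on the list, was at 0 in all Vitrified 4 h and all Fresh 8 h libraries. The part of these cells in the result was not tested.

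None of the 10 measures of library makeup had an interaction that passed. The smallest p was that of the immune markers, with a share of 0.00385% to 0.00397% in Vitrified 8 h and 8.21e-05% to 0.00231% in Vitrified 4 h libraries, against 0.00199% to 0.00344% in Fresh 8 h and 6.42e-05% to 0.00533% in Fresh 4 h libraries (exact permutation p = 0.0180, adjusted p = 0.180). Granulosa markers (p = 0.920) and oocyte markers (p = 0.142) did not pass either, and oocyte markers took 0.00178% to 0.0154% of counts. With 3 libraries against 4 at 8 h, the smallest p that an exact test at that time can give is 0.0286.

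The study also holds 9 Vitrified 8 h libraries on a plate without Fresh follicles. They were left out of the comparison, since the plate and the follicles cannot be told apart there. Taken in place of the 3, with the Vitrified 4 h and both Fresh groups shared between the fits, they gave a list median of -1.06 for the same 152 genes, beside -2.24 with the 3 that chose the list. Relative to the Fresh 8 h mean, the median log2 level of the 152 genes was -1.88, -1.93 and -2.14 in the 3 libraries and -2.05 to -0.25, with a median of -0.73, in the 9. It was -0.70 to 0.20 (median 0.06) in Vitrified 4 h libraries, -0.11 to 0.05 in Fresh 8 h libraries and -0.56 to 0.13 (median -0.32) in Fresh 4 h libraries. Over all genes in that fit, 13.1% were called, 5.63% lower and 7.52% higher. Of the 9 libraries 1 lay among the 3, at -2.05, and the others lay between -1.18 and -0.25, between the 3 and most of the Vitrified 4 h libraries.

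**Figure D4:**
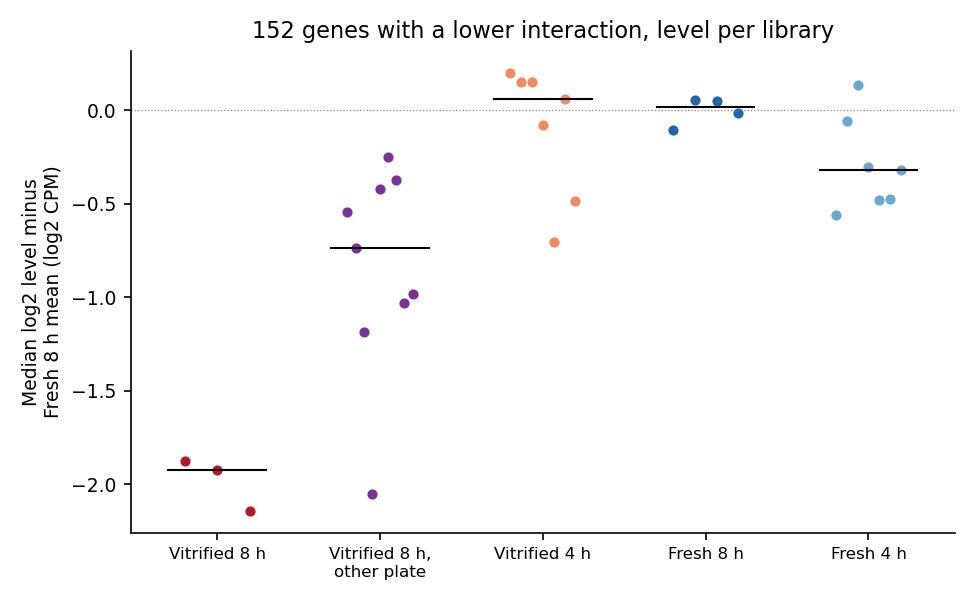
Median log2 level of the 152 genes with a lower interaction in each library, minus the mean of Fresh 8 h libraries, for the 3 Vitrified 8 h libraries of the comparison, the 9 of the other plate, Vitrified 4 h, Fresh 8 h and Fresh 4 h. Lines are medians. The 3 lie between -2.14 and -1.88 and the 9 between -2.05 and -0.25.

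Genes differed in how far the 9 libraries matched the 3. Psme3 had 3.17 to 5.03 CPM in the 3 and 1.17 to 8.13 CPM in the 9, against 29.9 to 32.2 CPM in Fresh 8 h libraries, and its interaction was -3.42 with the 3 and -3.37 with the 9 (adjusted p = 6.12e-06). Ahctf1 had 9.10 to 10.8 CPM in the 3 and 7.01 to 61.0 CPM in the 9, against 104 to 150 CPM in Fresh 8 h libraries (-1.96 with the 9, adjusted p = 0.0119). Bag1, Rab10 and Ash2l gave -2.35, -2.04 and -1.49 with the 9. All 9 libraries lay below all Fresh 8 h libraries in Psme3, Ahctf1, Bag1 and Rab10. The share of all genes with such a gap was not counted, while 5.63% of all genes were called lower with the 9. Psme3, Bag1 and Rab10 were picked after their values were seen.

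Other genes differed between the plates. Stt3b had 2.81 to 6.93 CPM in the 3 and 14.3 to 55.0 CPM in the 9, a range that takes in the 22.5 to 30.6 CPM of Fresh 8 h libraries, and its interaction with the 9 was -0.15 (adjusted p = 0.817). Ctnnb1 had -0.48 with the 9 (adjusted p = 0.282). Lonp1, Tpbg, Hdac2 and Gata4 had -1.065, -1.516, -0.986 and -0.996 with the 9, none of them called (adjusted p = 0.0902, 0.0923, 0.0832 and 0.0865). Nr4a1 had 236 to 388 CPM in the 3 and 38.9 to 203 CPM in the 9, against 72.0 to 142 CPM in Fresh 8 h libraries, and its interaction was not positive with the 9 (-0.10, adjusted p = 0.923). Gapdh gave -0.06 with the 9. Runx1 had 41.0 to 246 CPM in the 3 and 986 to 2148 CPM in the 9, against 391 to 648 CPM in Fresh 8 h libraries, and an interaction of 2.01 with the 9 (adjusted p = 4.78e-07). Ereg had 40.2 to 180.0 CPM in the 3 and 612 to 2228 CPM in the 9, against 32.5 to 108 CPM in Fresh 8 h libraries, and its interaction was 0.44 with the 3 and 4.07 with the 9 (adjusted p = 1.39e-05).

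The 152 genes shared a feature that the fit did not use, a GC-rich start of the transcript. In the longest protein-coding GENCODE vM21 transcript of each gene, the GC content of the first 200 bases had a median of 73.0% (quartiles 70.5% and 76.0%) in 145 of the 152 genes with a value, against 64.5% (58.0% and 71.0%) in 8246 genes tested. It was above 64.5% in 129 of the 145 (89.0%). When the genes were divided by this measure into 5 bins of equal size, the share with a negative interaction was 0.303%, 0.303%, 0.667%, 2.43% and 5.09% in order of increasing GC. Among genes with a mean of at least 10 CPM the shares were 0.583%, 0.350%, 0.933%, 3.74% and 7.70%. Of the windows measured, the first 200 bases and the next 200 were the richer ones. The medians were 67.5% against 56.0% for bases 201 to 400, 52.5% in both for bases 401 to 600, and 36% against 40.0% for the last 200 bases. Over whole transcripts the 152 genes were slightly poorer in GC, with a median of 48.6% against 50.2%, and their 3' untranslated regions were longer, at 1767 against 1238 bases.

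The trend across all genes was weak, with a Spearman rho of -0.146 between this GC content and the interaction over 8246 genes. Other measures had trends of similar size over the same genes. The GC content of whole transcripts had a rho of 0.157, in the opposite direction, and the length of the 3' untranslated region one of -0.129. The contrast by GC content of the first 200 bases can be read in each library. It is the median log2 level of the highest bin minus that of the lowest bin, relative to Fresh 8 h. It was -0.13, -0.15 and -0.47 in Vitrified 8 h replicates 1, 2 and 3 and 0.03 to 0.24 (median 0.17) in Vitrified 4 h libraries, against -0.05 to 0.05 in Fresh 8 h and 0.07 to 0.20 in Fresh 4 h libraries. The 3 Vitrified 8 h libraries were the lowest of the 21.

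**Figure D5:**
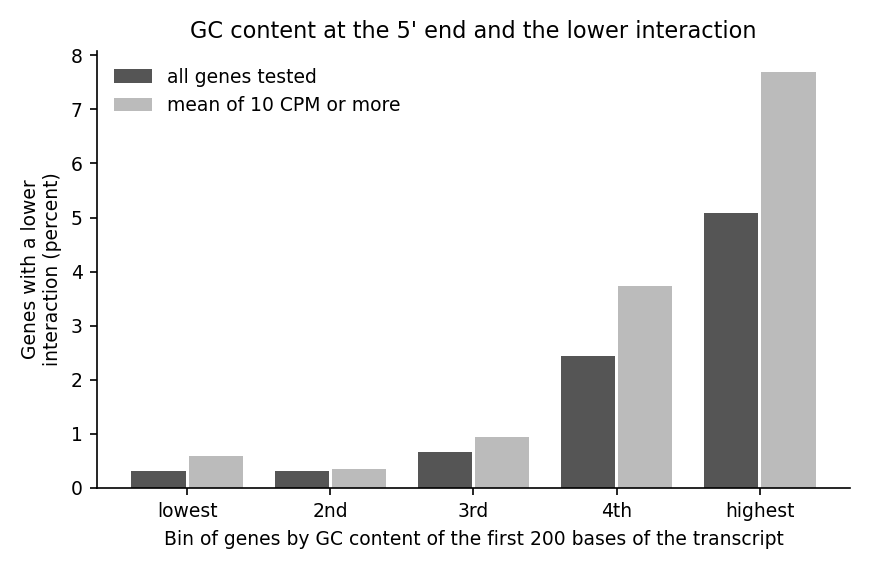
Percent of genes with a lower interaction in each of 5 equal bins of genes by GC content of the first 200 bases of the transcript, for all 8246 genes with a value (dark) and for genes with a mean of at least 10 CPM (light). The bars run from 0.303% in the lowest bin to 5.09% in the highest, and from 0.583% to 7.70%.

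The promoters below show how different the starts of such genes can be. They are those of the 3 genes with the lowest and the 1 with the highest interaction among the named called genes whose RefSeq start lies within 50 bases of that of the measured transcript. Each runs 5' to 3' from 250 bases before to 50 bases after the start in GRCm38.p6, with capitals marking CG dinucleotides. Tpbg, at chr9:85842130-85842429 on the plus strand, has 7 CG and 46.0% GC and is 1 of 2 promoters listed for the gene. Tspan5, at chr3:138741958-138742257 on the plus strand, has 43 CG and 73.3% GC. Rras2, at chr7:114117732-114118031 on the minus strand, has 20 CG and 60.3% GC. Slc30a7, with a positive interaction, at chr3:116007357-116007656 on the minus strand, has 23 CG and 65.7% GC.
Tpbg: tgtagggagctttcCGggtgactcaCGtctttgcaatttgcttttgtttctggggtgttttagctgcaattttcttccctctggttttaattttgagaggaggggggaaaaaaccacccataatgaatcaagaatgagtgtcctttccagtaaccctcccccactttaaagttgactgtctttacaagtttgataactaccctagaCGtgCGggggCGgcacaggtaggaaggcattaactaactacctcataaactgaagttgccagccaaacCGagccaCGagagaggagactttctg
Tspan5: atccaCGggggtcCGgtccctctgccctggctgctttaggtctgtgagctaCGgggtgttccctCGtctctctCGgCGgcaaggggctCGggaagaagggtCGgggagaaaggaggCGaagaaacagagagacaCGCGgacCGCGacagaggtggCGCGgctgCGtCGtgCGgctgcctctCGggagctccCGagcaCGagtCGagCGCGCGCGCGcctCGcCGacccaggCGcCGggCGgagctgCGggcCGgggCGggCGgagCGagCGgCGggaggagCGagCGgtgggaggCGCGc
Rras2: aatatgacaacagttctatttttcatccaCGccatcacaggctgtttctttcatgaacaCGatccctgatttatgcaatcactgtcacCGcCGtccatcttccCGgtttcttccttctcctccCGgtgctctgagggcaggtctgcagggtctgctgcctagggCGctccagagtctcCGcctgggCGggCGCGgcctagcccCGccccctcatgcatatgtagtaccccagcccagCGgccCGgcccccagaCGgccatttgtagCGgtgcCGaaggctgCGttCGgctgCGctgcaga
Slc30a7: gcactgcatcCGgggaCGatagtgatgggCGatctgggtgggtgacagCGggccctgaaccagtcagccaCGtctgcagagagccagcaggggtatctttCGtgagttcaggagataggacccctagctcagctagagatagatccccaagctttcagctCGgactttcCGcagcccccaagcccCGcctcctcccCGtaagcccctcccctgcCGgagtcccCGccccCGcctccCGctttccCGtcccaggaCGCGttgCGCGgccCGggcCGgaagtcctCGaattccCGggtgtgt
The first 200 transcript bases of these genes have a GC content of 54.5% in Tpbg, 81.5% in Tspan5, 71.0% in Rras2 and 66.5% in Slc30a7. Tpbg, with the lowest interaction of the 4, thus lies among the GC-poorest bin of starts, so the shared feature describes the 152 genes as a group and not each of them.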

How the data were processed

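Single-follicle cDNA was made by Smart-Seq2, which copies whole transcripts, and sequenced as paired-end Nextera XT libraries, per the labels' protocols. These do not record strand or count molecules. The authors deposited estimated counts per gene (15.4% of values are not whole) and log2(TPM + 1) values for 21572 gene rows. Partek, Bowtie2, HISAT2, DESeq2 and mm10 stand in the submitters' processing notes without roles or versions, with no word on reads that match several genes.

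Counts were rounded and tested in the 21 libraries with edgeR 4.0.16 in R 4.3.3 (quasi-likelihood, robust, TMM, expression filter with a minimum count of 10), with a mean for each of the 4 groups. The interaction, both steps and both status contrasts were adjusted by Benjamini-Hochberg over 9296 genes and read at 0.05. Of these genes, 13 have symbols that look like dates and are not named. Standard errors are the absolute log2 fold change divided by the square root of the F statistic, so they are approximate where steps are large. In Pgr that of the interaction was below those of both steps, which errors of separate libraries would not give. Alternatives used limma 3.58.1, DESeq2 1.42.0, other filters, scalings and library sets, and each library left out. Library makeup was compared by exact permutation within each time. The scripts were tested on simulated data.

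Named genes were the called ones with the 15 highest and 15 lowest interactions at 5 CPM or more in a group mean, 5 per list and the panel. The called genes Lonp1, Ash2l, Stt3b, Tram1, Psme3, Rab10, Gata4, Bag1, Hdac2, Ctnnb1, Foxs1 and Ybx1-ps2 were picked after their values were seen, as were Gclm, Egr1, Col3a1 and Fn1 where they fall outside that rule. The comparison, the lists and the panel were chosen with earlier results of these data known. Positions are from GENCODE vM21 and promoters from RefSeq (GRCm38.p6).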

Additional observations from a re-analysis of the deposited data

Results flagged for a closer look

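The interaction differed from 0 in 162 genes by edgeR's quasi-likelihood test, which sets the Vitrified step directly against the Fresh step. The log2 interactions were -3.69 in Ahctf1, -2.95 in Ash2l, -2.81 in Hdac2, -3.57 in Sap30, -3.75 in Wrnip1, -3.63 in Khdrbs1, -3.86 in Srsf2, -3.97 in Ybx1 and -3.38 in its pseudogene Ybx1-ps2. They were -4.54 in Tpbg, -4.42 in Tspan5, -3.16 in Rab10, -2.78 in Stt3b, -1.73 in Tram1, -2.61 in Lonp1 and -3.93 in Slc25a33. Others were -4.05 in Rras2, -5.21 in Pnrc1, -2.44 in Gata4, -2.56 in Ctnnb1, -3.42 in Psme3, -2.93 in Bag1, -2.65 in Txnrd1 and -3.63 in Phlda3. Transcripts with no known role that were called had -3.43 in D030056L22Rik, -3.79 in Gm6540 and -7.43 in Gm49361. Gm49361 had 0.418, 0.127 and 0 CPM in the 3 Vitrified 8 h libraries, so its fitted value rests on hardly any reads there. Positive interactions were 1.50 in Nr4a1, 0.95 in Gapdh, 0.74 in Ftl1, 1.78 in Alas1, 1.70 in Itpr1, 1.09 in Slc30a7, 3.77 in Foxs1, 1.49 in Gm6252, 1.04 in Gm9385 and 1.08 in Rpl14-ps1.

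Dixon's criterion was applied to groups of 4 to 7 libraries, so the 3 Vitrified 8 h libraries were not examined by it. The chi-square statistic per gene of their replicate 3 was 52.95 against replicate 1 and 93.46 against replicate 2. Their replicates 1 and 2 had 20.4 between them. Single libraries stood apart by the criterion in 21 of 255 groups of values examined (8.24%), where chance gives about 1 in 20. Among Vitrified 4 h libraries these were replicate 3 for D030056L22Rik (24.1 CPM), replicate 5 for Hk2 (12.0 CPM), replicate 7 for Akr1c18 (0.463 CPM) and replicate 6 for Fshr (8.69 CPM). Replicate 4 had 176 CPM of Fn1, 0.100% theca and stroma markers and 0.00231% immune markers, and replicate 2 had 3.56e-05% erythroid markers. Among Fresh 8 h libraries, replicate 3 stood apart for Rpl14-ps1 (140 CPM, the lowest), Col3a1 (182 CPM) and Fn1 (167 CPM). Replicate 1 had the lowest Fshr (20.7 CPM) and the lowest share of the 50 most abundant genes (34.1%), and replicate 4 had 721 CPM of Ptx3. Among Fresh 4 h libraries, replicate 3 was the highest for Lonp1 (139 CPM), Hdac2 (40.8 CPM) and Hnrnpu (169 CPM), and replicate 7 for Sfrp4 (4004 CPM). Replicate 4 was the highest for Itpr1 (21.9 CPM), oocyte markers (0.0154%) and theca and stroma markers (0.228%).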

How the results depend on the processing

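The interaction count of 162 was 104 with limma on log2(TPM + 1) (5 higher, 99 lower), 91 with 32 libraries of the shared plate (4 higher, 87 lower) and 7 with all 83 libraries and a plate term (0 higher, 7 lower). With the 9 Vitrified 8 h libraries of the other plate added it was 83 (29 higher, 54 lower), and with them in place of the 3 it was 1265 (723 higher, 542 lower). The cause was not tested. The higher count alone was 5 with total counts, 17 with a minimum count of 30, 24 with DESeq2 and 5 with the close pair summed. That summing was added after the data were seen. Leaving out 1 library gave 103 to 193 genes, with 1 to 21 higher and 98 to 177 lower. The 152 genes stayed below 0 in the median in all 35 alternatives, and Psme3 was called in each. The 152 were chosen by a negative interaction. Only the fit with the 9 in place of the 3 leaves out all Vitrified 8 h libraries that chose them. It still uses the Vitrified 4 h and both Fresh groups, which also chose the genes, so it is not an independent test. The other alternatives reuse Vitrified 8 h libraries that chose the genes, so the signs there are no new test. Of the 152, 6 were still called with all 83 libraries and a plate term, where 0.0608% of all genes were called lower. The count was 34 with the 9 added, where 0.544% of all genes were called lower. It was 63 with them in place of the 3, where 5.63% were.

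Total counts in place of TMM shift all libraries of 8 h against those of 4 h. The Vitrified step then had 4135 higher and 863 lower genes, and the Fresh step 4478 and 728. With limma these were 3811 and 656, and 4530 and 506. Vitrified against Fresh at 8 h had 15 genes higher with total counts, 112 with DESeq2, 18 with limma and 26 of 208 with the 32 libraries, and with 1 library left out 173 to 376 genes, 24 to 107 higher and 148 to 286 lower. At 4 h there were 43 genes with DESeq2 (25 higher, 18 lower), 8 with limma (4 and 4), 12 with the 32 libraries (5 higher) and 10 with the pair summed (5 and 5). With 1 library left out there were 6 to 24, 2 to 12 higher and 4 to 12 lower. Leaving out 1 library gave 3546 to 4208 genes in the Vitrified step (1984 to 2399 higher, 1562 to 1887 lower) and 3481 to 4441 in the Fresh step (1864 to 2369 higher, 1617 to 2072 lower).

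With the 9 libraries in place of the 3, the sign turned in 9 genes called in at least 1 of these fits, Adamts1 (1.13), Aldoa (-0.56), Ccnd2 (-1.44), D030056L22Rik (0.29), Gapdh (-0.064), Ldha (-1.11), Nr4a1 (-0.10), Rpl14-ps1 (-0.30) and Runx1 (2.01). It also turned in genes called in neither, among them Gclm (1.18), Egr1 (-0.52), Btc (0.46) and Star (-0.073), 42 of the 166 genes examined singly. No paired analysis was possible because the labels number no replicates. The sample numbers in the titles are not given per group, and the replicate numbers used here only name libraries in accession order. With 3 Vitrified 8 h libraries a median standard error of 0.488 on the interaction limits what can be called.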

Other observations

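The 152 genes with a negative interaction were also followed in the libraries outside the comparison, on the same scale, as the median log2 level minus the Fresh 8 h mean. Vitrified 0 h libraries, taken before hCG, had -1.81 to -0.45 (median -1.35, 15 libraries) and Fresh 0 h libraries -1.85 to -0.59 (median -1.06, 18 libraries), on a plate that held no other time. At 1 h, Vitrified libraries of the shared plate had -0.88 to 0.92 (median -0.65, 5 libraries) and Fresh libraries -1.11 to -0.47 (median -0.79, 6 libraries). The level of the 3 Vitrified 8 h libraries was -2.14 to -1.88, and the lowest of the 0 h libraries, on another plate, had -1.85. The 152 genes were chosen with those 3 libraries, which favours low values there. The order of these levels is therefore no test of a return to the level before hCG. The 9 Vitrified 8 h libraries that did not choose the genes had a median of -0.73. The value of 0.92 at 1 h belonged to replicate 4 alone, and the other four lay at -0.88 to -0.55. The 10 genes with a positive interaction had 0.72 to 1.20 in the 3 Vitrified 8 h libraries and -0.08 to 0.27 in the 9 of the other plate, against -0.05 to 0.09 in Fresh 8 h libraries, with 0.48 to 0.71 in Vitrified 4 h and 0.57 to 1.21 in Fresh 4 h libraries.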
